A study of Rattus norvegicus with 6 samples.

Results

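Trypsinogens are the inactive precursors of trypsin, and the trypsin inhibitors of the pancreas are small secreted proteins of the Spink family that block trypsin formed too early. The members were every probe set on the array whose annotation names only 1 gene, that gene being Prss1, Prss2, Prss3, Spink1, Spink1l or 1810009J06Rikl. Of these 6 symbols, 5 were found, on 7 of the 15866 probe sets, with 3 probe sets of trypsinogens and 4 of inhibitors. Prss3 had no probe set of its own under this annotation. A related trypsinogen, Prss3b, which RefSeq lists with Prss3 as an older name, was read by 1 probe set and is given beside the members but not counted with them.

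Transcript levels were read in pancreas from 3 ethanol-fed rats and 3 rats on a control diet, 1 array a rat, in a study of chronic ethanol consumption. The labels give the diet and the organ. Strain, sex, age, length of feeding and diet make-up are not given in the labels used here. Values are intensities, read from probe sets, which are groups of short oligonucleotides for 1 transcript. An intensity is not a number of molecules, and probe sets differ in how strongly they bind, so a level is compared only with the same probe set on another array. Acinar markers (Cpa1, Pnlip, Cel, Ctrb1, Cela1 and Amy2a3) were all measured, with a summed intensity from 840338 to 869154 on the ethanol arrays and from 837228 to 843396 on the control arrays. Of these 6, Cpa1, Pnlip, Cel and Ctrb1 read 92.0% to 100% of the maximum of their array and make up most of the sum, so it shows that the markers are present and not whether acinar content was level between diets. In whole tissue, fewer cells of a type and less RNA per cell cannot be told apart.

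Acinar cells make trypsinogen and store it in zymogen granules together with the other digestive zymogens. In the gut enteropeptidase removes its activation peptide, and the trypsin so formed activates further trypsinogen and the other zymogens. Spink proteins occupy the active site of trypsin inside the granule and the duct, and in people variants of SPINK1 are known to raise the risk of chronic pancreatitis. Rats carry several trypsinogen genes. Prss1 and Prss2 encode anionic trypsinogens, Prss3b is known under the name Try3 as a cationic one, and 1810009J06Rikl has P23 and Try4 among its names in RefSeq. The name Try4 is listed there for Prss3 as well. Spink1 and Spink1l encode a pair of secretory trypsin inhibitors, and the Spink1 product of the rat, PSTI-61, is also known as monitor peptide, which releases cholecystokinin in the gut.

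The trypsinogen genes lie together on chromosome 4 and the inhibitors on chromosome 18. In the gene order of RefSeq (GRCr8), Prss2 and Prss1 were separated by 3 annotated genes, and 1810009J06Rikl and Prss3b by 1 pseudogene. Between 1810009J06Rikl and Prss1 lay 24 annotated genes, of which 14 were V segments. Spink1l and Spink1 were direct neighbours, with 0 annotated genes between them. The sequence just before the start of the inhibitor genes is shown because it is nearly the same in both, with the bases that differ in capitals, read 5′ to 3′ on the strand of the gene (RefSeq, GRCr8).
Spink1, chr18:36133597-36133756, - strand: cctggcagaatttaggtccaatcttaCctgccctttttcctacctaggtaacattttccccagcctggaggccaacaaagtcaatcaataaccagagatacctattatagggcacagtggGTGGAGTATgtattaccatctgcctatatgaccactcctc
Spink1l, chr18:36086697-36086856, - strand: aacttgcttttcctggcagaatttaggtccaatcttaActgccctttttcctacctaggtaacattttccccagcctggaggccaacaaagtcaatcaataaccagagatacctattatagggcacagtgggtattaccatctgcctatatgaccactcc
In an alignment of the 250 bases before each gene start, 238 of 239 paired bases were identical (99.6%). Within the aligned stretch Spink1 held 9 bases that had no partner in Spink1l. Unpaired bases at the ends of the alignment, in both genes, were neither counted nor put in capitals.

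The trypsinogen promoters are shown for the motifs that an exact search found in them, in capitals. The first motif, spelled TATAAA, is the core of the TATA box where transcription machinery assembles. The second, spelled CACCTG, is an E-box. The third, spelled TGGGAAA, is a TG-box, which together with an E-box makes up the site bound by the acinar factor PTF1. Each was searched on both strands of the 250 bases before the start.
Prss1, chr4:71330999-71331248, + strand: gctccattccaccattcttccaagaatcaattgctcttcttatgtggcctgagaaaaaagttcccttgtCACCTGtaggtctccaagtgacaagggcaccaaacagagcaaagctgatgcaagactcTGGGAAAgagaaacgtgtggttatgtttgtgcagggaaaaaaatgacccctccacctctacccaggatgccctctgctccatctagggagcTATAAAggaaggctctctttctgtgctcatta
Prss2, chr4:71244804-71244963, + strand: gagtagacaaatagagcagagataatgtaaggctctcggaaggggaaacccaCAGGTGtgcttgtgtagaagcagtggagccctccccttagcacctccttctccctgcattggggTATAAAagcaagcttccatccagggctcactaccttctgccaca
Prss1 held all 3 motifs, the TATA box starting 32 bases before the gene start. Its E-box started 181 and its TG-box 123 bases before it, and whether the pair forms a PTF1 site was not tested. Prss2 held the TATA box, starting 44 bases before the start, and the E-box on the opposite strand, written here as CAGGTG. The matches did not overlap one another. Of 33469 rat promoters of the same length, 12.9% held the first motif, 15.9% the second and 7.1% the third. Spink1 and Spink1l each held the TG-box, on the opposite strand and outside the stretch shown, and neither of the others in this window. Over the 250 bases the 2 trypsinogens were far less alike than the 2 inhibitors, at 72.4% of 196 paired bases.

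One trypsinogen, 1810009J06Rikl, was about 3-fold brighter in the ethanol-fed rats, while Prss1, Prss2 and both inhibitors differed in intensity by 1.18-fold or less on every probe set. Prss1 and Prss2 were read in a bright range where probe sets varied little, as described below. No member passed the test over all probe sets. The test was limma on log2(intensity + 50), with Benjamini-Hochberg adjustment over the 9520 probe sets bright enough to be tested, and a change was called at an adjusted p under 0.05. All 7 member probe sets were bright enough to enter it. It called 0 of the 7, against 39 of 9520 tested (0.410%), with 0.105% of those tested called higher and 0.305% called lower in ethanol rats. An unadjusted p under 0.05 was met by 1 of the 7, which is 14.3% and higher in ethanol rats, against 18.4% of all tested (8.08% higher and 10.3% lower).

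The probe set of 1810009J06Rikl (1371092_at) read 30270, 49887 and 45009 on ethanol replicates 1, 2 and 3, against 9637, 13530 and 18403 on control replicates 1, 2 and 3. Every ethanol-fed rat lay above every control rat, and the dimmest ethanol array stood well clear of the brightest control array. The means were 41722 ± 10213 in ethanol rats and 13857 ± 4392 in control rats (SD, n = 3 each). The log2 change was 1.60 (SE 0.27), which is 3.04-fold with a 95% interval from 1.97 to 4.68, and the limma adjusted p was 0.0571. Of all tested probe sets, 14, itself included, had a log2 change at least as high (0.147%) and 58 an adjusted p at least as low (0.609%). The value lay on the edge of the threshold. Over the alternatives the limma adjusted p ran from 0.00597 to 0.197, and it was 0.0451, past the threshold, without ethanol replicate 1, the dimmest ethanol array. With any other single array left out the limma adjusted p was from 0.112 to 0.192, farther from the threshold than 0.0571. The direction was the same in all 15 alternatives, with a log2 change from 1.37 to 1.83. Most of these could not have reversed it. Filters, the variance trend, the replicate block and the threshold leave the log2 change as it is. Leaving out a single array cannot turn its sign when the diets do not overlap.

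The spread of 1810009J06Rikl between rats on the same diet was also wide, with an SD of log2 values of 0.38 in ethanol rats and 0.47 in control rats. For Prss2 the SD was 0.082 in ethanol rats and 0.12 in control rats, and for Prss1 0.051 in ethanol rats and 0.038 in control rats. The intensity of 1810009J06Rikl ran from 5.90% to 30.0% of the array maximum. Whether its probe set also reads other trypsinogens was not tested.

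**Figure D1:**
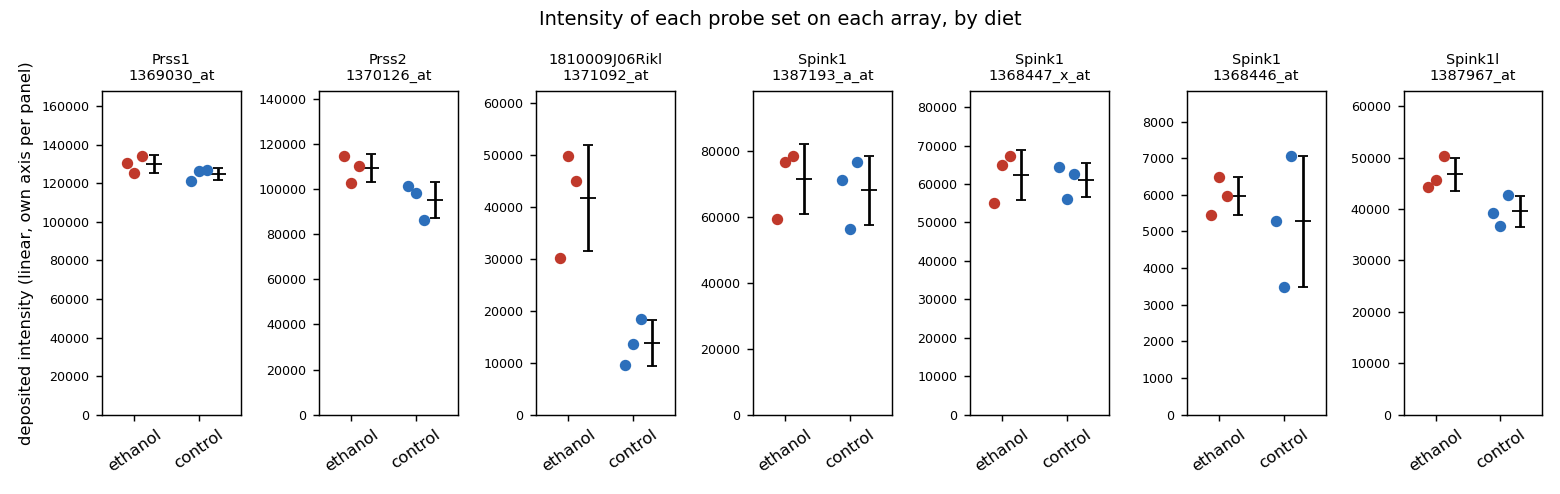
Intensity (linear scale from 0, with its own axis in each panel) of the 7 probe sets on each of the 6 arrays, ethanol diet in red and control diet in blue, with the mean ± SD (n = 3) as a black bar beside the points. For 1810009J06Rikl the ethanol arrays lie between 30270 and 49887 and the control arrays between 9637 and 18403, and on the 3 Spink1 panels the diets overlap.

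Prss2, an anionic trypsinogen, was slightly brighter in ethanol-fed rats without passing the test. Its probe set (1370126_at) read 114817, 102587 and 110205 on ethanol replicates 1 to 3, against 101511, 98111 and 86242 on control replicates 1 to 3. The lowest ethanol array lay just above the highest control array, so the diets did not overlap. The means were 109203 ± 6176 in ethanol rats and 95288 ± 8016 in control rats (SD, n = 3 each), and the log2 difference came to 0.20 (SE 0.14; adjusted p by limma, 0.483). As a fold change this is 1.15, with a 95% interval from 0.918 to 1.43. With single arrays left out the log2 difference ran from 0.13, without control replicate 3, to 0.25, without control replicate 1.

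Prss1, the other anionic trypsinogen, could not be read as freely. Its probe set (1369030_at) read 130685, 125253 and 134357 on the ethanol arrays, against 121219, 126509 and 127117 on the control arrays, and the diets overlapped. The log2 change was 0.06 (SE 0.13, adjusted p by limma = 0.844), or 1.04-fold with a 95% interval from 0.847 to 1.28. With single arrays left out it ran from 0.034, without ethanol replicate 3, to 0.085, without ethanol replicate 2, and it was 0.036 without control replicate 1. These intensities are 74.2% to 81.5% of the maximum of their array. The array maxima ran from 163449 to 171742. Prss3b (1388186_at), also at 73.6% to 78.2% of the array maximum, read 128383, 122978 and 128302 on the ethanol arrays and 120947, 130576 and 122762 on the control arrays, with overlapping diets and a log2 difference of 0.02 (SE 0.13, adjusted p by limma = 0.950).

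Bright probe sets varied little on these arrays. Among the 26 tested probe sets with a mean of 80000 or more, which include Prss1, Prss2 and Prss3b, the median SD of log2 values within a diet was 0.0426, against 0.185 among the 4403 with a mean from 1000 to under 10000. The median size of the log2 change was 0.0344 in the first set and 0.205 in the second. No probe set of the 26 differed by more than 0.198 on the log2 scale, and that value is the difference of Prss2. Probe sets from 10000 to under 50000, where 1810009J06Rikl and Spink1l lie, had a median within-diet SD of 0.109. The small log2 change of Prss1, read in this narrow range, does not show that its transcript was level. Whether the change of Prss2 is understated in the same range was not tested.

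**Figure D2:**
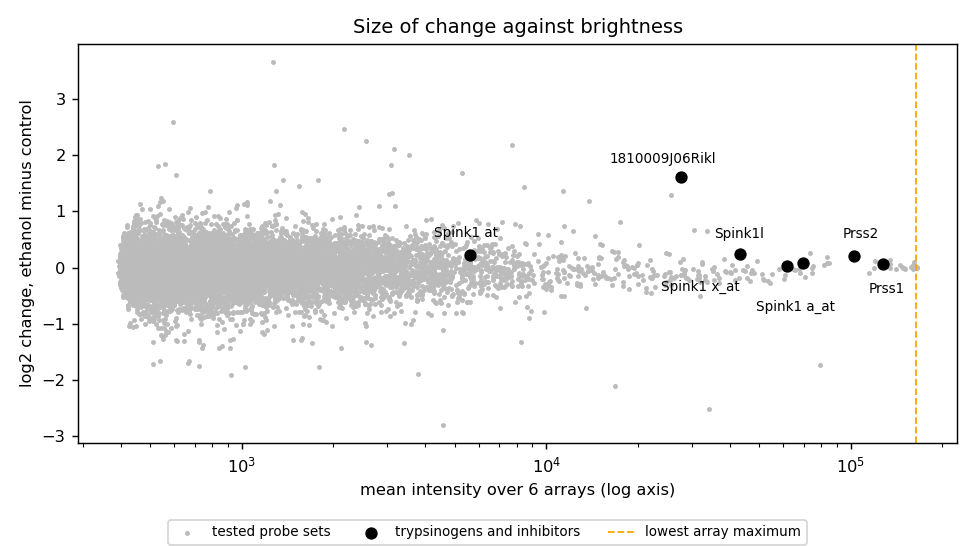
Log2 change, ethanol minus control, of each tested probe set (grey) against its mean intensity over the 6 arrays on a log axis, with the 7 member probe sets in black and the lowest array maximum (163449) as a dashed line. The cloud narrows toward the line, where Prss2 (0.20) and Prss1 (0.06) lie. The point of 1810009J06Rikl (1.60) lies far above most of the cloud, dimmer than both but still among the brightest probe sets (rank 99 by mean).

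The inhibitor Spink1 was read by 3 probe sets, and on none did the diets separate. The brightest (1387193_a_at) read 59323, 76643 and 78583 on ethanol replicates 1 to 3, against 71155, 56324 and 76614 on control replicates 1 to 3. The second (1368447_x_at) read 55062, 64867 and 67362 on the ethanol arrays, against 64311, 56019 and 62631 on the control arrays. The dimmest (1368446_at) read 5455, 6488 and 5957 on the ethanol arrays, against 5285, 3491 and 7068 on the control arrays. On all 3 probe sets ethanol replicate 1 was the lowest of the ethanol arrays and control replicate 2 the lowest of the control arrays. The 3 probe sets read the same 6 RNA samples.

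In the same order of probe sets, the log2 changes were 0.07 (SE 0.18), 0.03 (SE 0.15) and 0.23 (SE 0.24), with limma adjusted p of 0.862, 0.934 and 0.648. Their 95% intervals ran from -0.34 to 0.49, from -0.31 to 0.37 and from -0.33 to 0.79. Without control replicate 2 all 3 turned below 0, at -0.057, -0.029 and -0.038, and without ethanol replicate 3 the first came to just below 0 and the second to -0.027. Neither a rise nor a fall within these intervals can be told from 0 with 3 rats a diet. An x in a probe set name marks probes that can bind other transcripts, and an a marks a set shared by several transcripts of a gene. Whether either reading takes in Spink1l was not tested.

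Spink1l, the neighbouring inhibitor, was slightly brighter in ethanol-fed rats and did not pass. It was read by 1 probe set (1387967_at), at 44220, 45548 and 50355 on ethanol replicates 1 to 3, against 39151, 36758 and 42770 on control replicates 1 to 3. The diets did not overlap, but the lowest ethanol array was close to the highest control array. The means were 46708 ± 3228 in ethanol rats and 39560 ± 3027 in control rats (SD, n = 3 each). The log2 change was 0.24 (SE 0.14, adjusted p by limma = 0.399), which is 1.18-fold with a 95% interval from 0.945 to 1.48. At 22.0% to 30.5% of the array maximum it lay well within the range.

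Counted together, the 3 ethanol arrays lay above the 3 control arrays on 3 of the 7 member probe sets (42.9%), those of 1810009J06Rikl, Prss2 and Spink1l, and below them on 0. Among all tested probe sets the diets did not overlap on 25.4%, with ethanol above control on 11.1%. With 7 probe sets of 5 genes, 3 of them reading Spink1, the count is small and its members are not independent. All 7 log2 changes were above 0, and their median was 0.20 against 0.000195 over all tested.

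**Figure D3:**
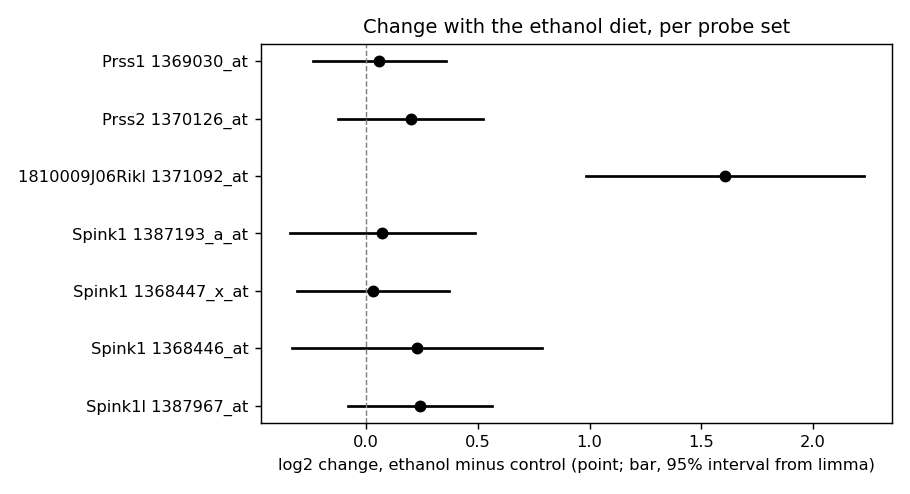
Log2 change, ethanol minus control, of the 7 probe sets with its 95% interval from limma. The interval of 1810009J06Rikl runs from 0.98 to 2.23 and the other 6 intervals include 0. The fit has no variance trend, with which the SE is 0.071 for Prss2 and 0.078 for Spink1l, against 0.14 for each here.

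Since trypsin and its inhibitors act against each other, the log2 ratio of each trypsinogen to each inhibitor was taken on every array, with Spink1 read on its brightest probe set. Only the difference of a ratio between diets is read, since its level depends on how strongly each probe set binds. There were 6 such pairs, and 3 arrays against 3 cannot give a two-sided exact permutation p below 0.1. The 2 pairs with 1810009J06Rikl were higher on every ethanol array, 1 pair was lower on every ethanol array, and on the remaining 3 pairs the diets overlapped.

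The log2 ratio of 1810009J06Rikl to Spink1 was -0.97, -0.62 and -0.80 on ethanol replicates 1 to 3, against -2.88, -2.05 and -2.05 on control replicates 1 to 3. The difference was 1.53, or 2.89-fold (two-sided exact permutation p = 0.1, adjusted p over the 6 pairs = 0.2). Over Spink1l the ratio was -0.55, 0.13 and -0.16 on the ethanol arrays, against -2.02, -1.44 and -1.21 on the control arrays. This difference was 1.36, or 2.57-fold (exact permutation p = 0.1, adjusted p = 0.2). Beside these differences, the numerator alone differed by 1.60 on the log2 scale, and Spink1 and Spink1l by 0.07 and 0.24.

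For the anionic trypsinogens, both read in the bright range of narrow spread, the ratios differed less between diets. Prss1 over Spink1l was 1.56, 1.46 and 1.41 on the ethanol arrays, against 1.63, 1.78 and 1.57 on the control arrays, so that every ethanol array lay below every control array by a narrow margin. The difference was -0.18 (exact permutation p = 0.1, adjusted p = 0.2), and its numerator lies in the narrow upper range. Prss1 over Spink1 differed by -0.01 (exact permutation p = 0.8), Prss2 over Spink1 by 0.13 (exact permutation p = 0.7) and Prss2 over Spink1l by -0.04 (exact permutation p = 0.9). Each of these 3 differences changed sign when single arrays were left out. Prss1 over Spink1 ran from -0.15 to 0.12 and turned when the array left out was ethanol replicate 2, ethanol replicate 3 or control replicate 2. Prss2 over Spink1 ran from -0.040 to 0.28 and turned when it was ethanol replicate 1 or control replicate 3. Prss2 over Spink1l ran from -0.17 to 0.033 and turned when it was ethanol replicate 3, control replicate 1 or control replicate 2. The adjusted p over the 6 pairs was 0.9 for each.

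**Figure D4:**
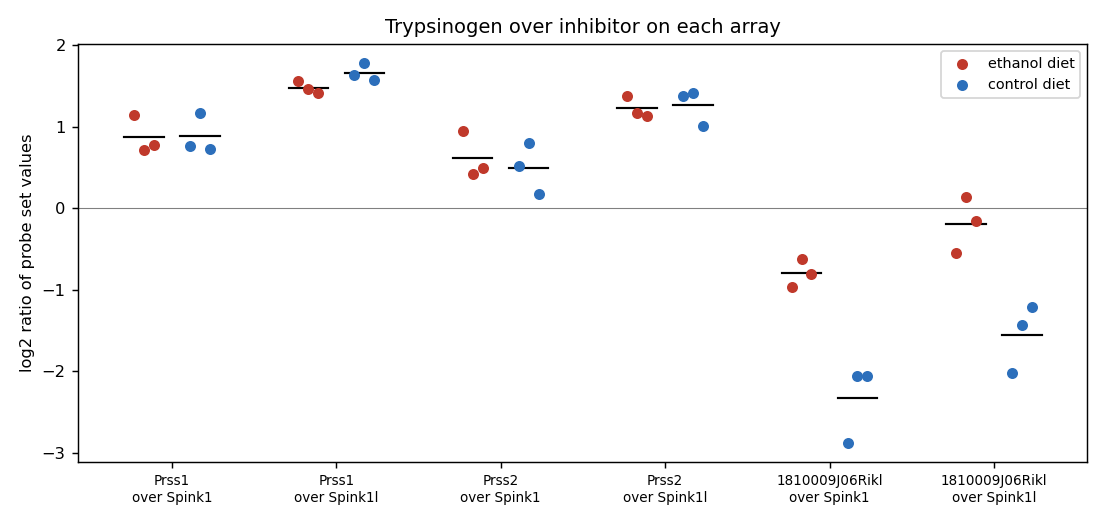
Log2 ratio of a trypsinogen probe set to an inhibitor probe set on each array, for the 6 pairs, ethanol diet in red to the left of control diet in blue, with the mean of each diet as a black line. The diets separate widely for 1810009J06Rikl over Spink1 (difference 1.53) and over Spink1l (1.36), and lie close together for the pairs with Prss1 and Prss2.

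Ratios within the trypsinogens and within the inhibitors were taken in the same way. The log2 ratio of 1810009J06Rikl to Prss2 averaged -1.42 ± 0.45 on the ethanol arrays and -2.82 ± 0.58 on the control arrays (SD, n = 3 each), a difference of 1.41 (two-sided exact permutation p = 0.1). To Prss1 the difference was 1.55 (exact permutation p = 0.1), with Prss1 in the narrow upper range, and Prss2 also belongs to the bright set described above. Prss2 to Prss1 differed by 0.14 with overlapping diets (exact permutation p = 0.3), and Spink1 to Spink1l by -0.17, also with overlap (exact permutation p = 0.3). These 4 pairs were not adjusted, as none could pass at this number of rats.

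The genes whose values ran most like 1810009J06Rikl over the 6 arrays were Klf6, a zinc finger transcription factor, Hspb1, a small heat shock protein, and Pim3, a serine/threonine kinase. Likeness was the root mean square distance between log2 values, each gene centred on its own mean, which was 0.21, 0.29 and 0.32. Of the 3, Pim3 passed limma's test, at 8105 ± 630 in ethanol rats and 2505 ± 347 in control rats (log2 change 1.68, SE 0.16, adjusted p = 0.00957). Klf6 was at 1874 ± 625 in ethanol rats and 715 ± 351 in control rats (log2 change 1.37, SE 0.35, adjusted p by limma = 0.118). Hspb1 was at 2049 ± 1008 in ethanol rats and 501 ± 129 in control rats (1.82, SE 0.37, adjusted p by limma = 0.0858). With 6 arrays in 2 groups, a large difference between the diets alone brings genes close by this measure.

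The nearest genes of the other members were unlike these. For Prss2 they were Slc25a38, Sec62, a part of the machinery that moves proteins into the endoplasmic reticulum, and Slirp (distances 0.039, 0.040 and 0.045). For Spink1l they were Rab11fip4, Dennd2b and Tprkb (0.019, 0.031 and 0.031), and for Spink1 Acer2, Mphosph8 and Serinc1 (0.033, 0.050 and 0.051). For Prss1 they were COX2, the carboxypeptidase zymogen Cpb1 and Hm13 (0.029, 0.031 and 0.034), which differed as little between arrays as Prss1 itself. None of these 12 passed limma's test.

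Trypsin activates the other zymogens, and none of those measured passed the test. The list was made for trypsin-activated zymogens, although Pnliprp1 in it, a lipase-related protein, is not known as one. Of 12 listed, 10 were measured and limma called 0, with 0 also at an unadjusted p under 0.05 and a median log2 change of 0.015. Near the top of the range, at 80% of the lowest maximum or above, stood 8 of the 10. The change of a probe set there is unknown, so the 0 calls and the median do not show that these zymogens were level. The members of smallest p were Pnliprp1, at 0.12 (SE 0.13) and higher on every ethanol array than on any control array, the elastase Cela1, at -0.10 (SE 0.13), and the chymotrypsinogen Ctrb1, at 0.04 (SE 0.13). Ctrb1 stood near the top of the range, at 94.4% to 98.1% of the array maximum.

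Among proteases that act on trypsinogen, and their inhibitors, 0 of 6 were called by limma (0 at an unadjusted p under 0.05, median -0.015, 7 listed). Cathepsin B (Ctsb), which can activate trypsinogen inside acinar cells, read 8858, 9373 and 8960 on the ethanol arrays, against 9911, 11282 and 10199 on the control arrays. All ethanol arrays lay below all control arrays, at a log2 change of -0.20 (SE 0.13, adjusted p by limma = 0.453). Cystatin C (Cst3), a secreted cathepsin inhibitor, read 8474, 9662 and 8750 on the ethanol arrays, against 9747, 11028 and 12944 on the control arrays. It was also lower on every ethanol array, at a log2 change of -0.32 (SE 0.16, adjusted p by limma = 0.322). The third, the cytosolic inhibitor Cstb, was at 0.06 (SE 0.13). Cathepsin L (Ctsl), which degrades trypsinogen, was at 0.02 (SE 0.18), and chymotrypsin C (Ctrc), which also does, stood near the top of the range.

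Among other protease inhibitors limma called 0 of 9 measured (13 listed), while an unadjusted p under 0.05 was met by 1 upward and 1 downward gene, and the median log2 change was -0.081. Of all tested probe sets, 8.08% met that limit upward and 10.3% downward. Spint2, a membrane-bound Kunitz inhibitor of serine proteases, read 10995, 13265 and 12204 on the ethanol arrays, against 8517, 7850 and 7917 on the control arrays. The diets were well apart, at a log2 change of 0.58 (SE 0.14, adjusted p by limma = 0.107). Serpinb6a, an intracellular serpin, lay the other way, at 1237, 1997 and 2275 on the ethanol arrays, against 2500, 3023 and 3063 on the control arrays (log2 change -0.66, SE 0.23, adjusted p by limma = 0.185). Timp1, an inhibitor of metalloproteinases, was at 0.35 (SE 0.18) with overlapping diets.

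Of the receptors that serine proteases cleave, F2rl1, the trypsin receptor PAR2, was dim, at 430 ± 48.2 in ethanol rats and 366 ± 64.6 in control rats (SD, n = 3 each), at a log2 change of 0.21 (SE 0.17, adjusted p by limma = 0.528). F2r, the thrombin receptor, was at 0.33 (SE 0.17), and the other 2 listed were too dim to be tested. Limma called 0 of the 2 (0 at an unadjusted p under 0.05, median 0.27).

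For the transcription factors of acinar cells the result was 0 of 7 called by limma (8 listed), an unadjusted p under 0.05 for 1 upward and 1 downward gene, and a median of 0.061. The shares over all tested were 8.08% upward and 10.3% downward at that limit. Ptf1a, the pancreas-specific part of PTF1, read 12259, 12386 and 14084 on the ethanol arrays, against 9361, 8759 and 10111 on the control arrays. Every ethanol array was above every control array, at a log2 change of 0.45 (SE 0.14, adjusted p by limma = 0.161). Xbp1, a factor of secretory cells, was lower on every ethanol array, at 23714, 26006 and 30021 against 38718, 38430 and 35220 on the control arrays (log2 change -0.50, SE 0.15, adjusted p by limma = 0.149). Gata6 was at 0.27 (SE 0.16), with the ethanol arrays above the control arrays by a small gap. On another Gata6 probe set, too dim to be tested, the diets overlapped. The median over all tested probe sets was 0.000195, beside which each of these list medians stands as a description. Diets that do not overlap were common, on 25.4% of all tested. From 10000 to under 50000, where Spint2, Ptf1a and Xbp1 lie, the share was 43.1%.

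**Figure D5:**
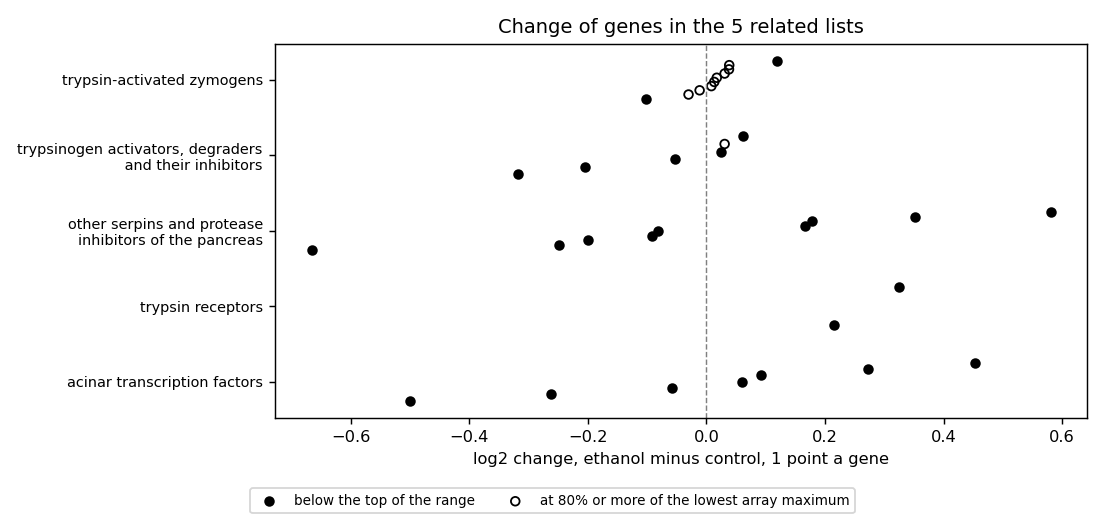
Log2 change, ethanol minus control, of each measured gene of the 5 related lists, with open circles for genes near the top of the range (80% of the lowest maximum or above). The zymogens crowd around 0 at the top of the range, and the protease inhibitors spread from -0.66 to 0.58.

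Markers of other cell types were checked beside these values. The erythroid genes Hbb, Hba-a3 and Alas2 (3 measured of 5 listed, none at 0) were higher on every ethanol array, with a summed intensity from 24346 to 31650 on the ethanol arrays and from 14138 to 21085 on the control arrays. Their part in the difference of 1810009J06Rikl was not tested. For ductal, islet, stellate, leukocyte, mast cell and adipocyte markers the summed intensities of the diets overlapped. The ductal sum rested on Spp1 and Krt7 (2 measured of 5 listed) and the adipocyte value on Fabp4 alone (1 of 4).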

How the data were processed

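Pancreas RNA from 3 rats on an ethanol diet and 3 on a control diet was hybridised to 1 single-colour array each; per the labels' protocols, total RNA was extracted with a column kit and made into biotin-labelled cRNA. The deposited values are intensities on a linear scale, 1 per probe set and array. Background subtraction is seen from 931 to 949 values below 0 on each array, and a common scaling from medians of 543 or 544; scanner, software and normalization: not given in the sources used here. The array medians of log2 values differed by at most 0.0024, so no further normalization was applied. No scan dates or other batch labels were given.

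Of 15923 probe sets, 57 controls were left out. Values below 0 were set to 0, 50 was added and the log2 taken, so fold changes of dim probe sets are understated. Probe sets whose mean log2 value reached the 40th percentile entered limma 3.58.1 in R 4.3.3 (2 groups, no block, empirical Bayes). Ratios were compared by two-sided exact permutation over the 6 arrays. Genes were named from the platform annotation, checked by gene ID against RefSeq. A list gene was read on its brightest tested probe set; named were every member, the 3 list genes of smallest p and any called, and the 3 genes most like each member. Promoters were aligned with Biopython 1.88. The limma step was tested on simulated data. Members, lists and tests were chosen with earlier results of these data known. The number of arrays limits the precision. The rats are separate animals per the series' design text. Alternatives were other constants, normalizations and filters, a variance trend, a replicate block, another threshold, gene-wise means of probe sets, and leaving out single arrays.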

Additional observations from a re-analysis of the deposited data

How the results depend on the processing

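The log2 changes of 1810009J06Rikl, Prss1, Prss2 and Spink1l kept their sign in all 15 alternatives run for each. Filters, the variance trend, the replicate block and the threshold cannot alter a log2 change. Where the diets did not overlap, as for all of these but Prss1, leaving out a single array cannot turn the sign either. Limma called 1 member probe set, that of 1810009J06Rikl, with a constant of 100, quantile normalization, a variance trend, a 60th percentile filter or an adjusted p under 0.10, and 0 to 1 with an array left out. Without ethanol replicate 1 it was called at a limma adjusted p of 0.0451, and it was not called with any other single array left out. With a variance trend the SE of Prss2 fell from 0.14 to 0.071, at a limma adjusted p of 0.158. That of Spink1l fell from 0.14 to 0.078, at a limma adjusted p of 0.128. The log2 changes of the 3 Spink1 probe sets ran from -0.057 to 0.20, -0.029 to 0.12 and -0.038 to 0.47 with an array left out. The number of probe sets limma called over the whole array was 39 as reported, and 12 with a constant of 20, 0 with every probe set tested (2263 had an unadjusted p under 0.05), 134 with a 60th percentile filter, 249 with a variance trend, 228 at an adjusted p under 0.10 and 2 to 38 with an array left out.

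With an array left out, the difference of the log2 ratio ran from -0.15 to 0.12 for Prss1 over Spink1, -0.040 to 0.28 for Prss2 over Spink1, -0.17 to 0.033 for Prss2 over Spink1l, -0.23 to -0.12 for Prss1 over Spink1l, 1.26 to 1.67 for 1810009J06Rikl over Spink1 and 1.13 to 1.54 for it over Spink1l. The related lists held 0 calls in every fit run on them. Beside the main fit, these tested every probe set, used the stricter filter or left an array out. Over the whole array limma called 0 with every probe set tested and 2 to 38 with an array left out. Such fits left little room for a call in a list. The lists were not rerun with other constants or normalizations, the variance trend, the replicate block or the looser threshold. Arrays share replicate numbers across diets. Their deviations from the diet means correlated by -0.0295, 0.0259 and -0.138 for numbers 1, 2 and 3. Across unlike numbers the correlations ran from -0.0764 to 0.0949. The labels do not say whether the numbers pair rats, and with 3 arrays a diet these correlations cannot decide it. With a replicate block limma called 6 probe sets and 0 members. The ratio differences cannot change with such a block when each number holds 1 array of each diet. Their smallest two-sided exact permutation p, taken within replicate numbers, was 0.25, against 0.1 without the block. The cause of the shifts between alternatives was not tested. The narrow spread of bright probe sets limits what can be said of Prss1 and Prss2. Prss1 lay at 74.2% to 81.5% of the array maximum and Prss2 at 51.7% to 66.9%.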
